A study of Homo sapiens with 6 samples.

Results

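The genes described here encode the MYC, MAX and MXD network of transcription factors: MYC, MAX, MXD1, MXD3, MXD4, MXI1, MNT, MGA, MLX and MLXIP. They are 10 of 19126 autosomal protein-coding genes that the lists could name. They were chosen as a gene family by symbol, with earlier results of these data known. A gene counted as listed where its symbol stood in the gene column of a promoter, enhancer or super-enhancer list, and the peaks that overlapped its rows were taken as its peaks.

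Proteins of this network bind DNA as pairs of basic helix-loop-helix leucine zipper factors, mostly at the E-box CACGTG. MAX is the common partner. With MYC or N-Myc it forms activating dimers, and with the MXD proteins, MNT or MGA it forms dimers that recruit corepressors to the same kind of site. MLX is the partner in a parallel branch, in which MLXIP (MondoA) responds to glucose metabolites. N-Myc, the product of MYCN, is the MYC family protein that drives MYCN-amplified neuroblastoma, a childhood tumour of the sympathetic nervous system.

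Binding was measured by ChIP-seq in CHP-134, an established human neuroblastoma cell line with amplified MYCN, grown without a drug or genetic treatment named in the labels. Chromatin was precipitated in 3 samples with an N-Myc antibody after formaldehyde cross-linking alone, and in 3 samples with an antibody against JMJD6, a JmjC-domain dioxygenase, after DSG followed by formaldehyde. All 6 samples came from this cell line. The lists for the proteins differ in antibody and in cross-linking as well as in protein, and these cannot be told apart.

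The authors kept only peaks called in all 3 replicates of a protein, and the 12 lists hold 1 set of intervals per protein or for both, with no height, score or read count. The study's methods state only a minimum read number for all samples, so the depth of each sample cannot be given, no spread between replicates exists for any value below, and no test could be made. The N-Myc list held 10172 peaks (median width 418 bp), the JMJD6 list held 561 (median width 435 bp), and 241 intervals were shared. Promoters were regions of 1 kb on each side of a start site, and enhancers were regions defined from H3K27 acetylation and given to the nearest genes. All coordinates are in hg19 (GRCh37), counted from 1, and annotations are those of GENCODE. A gene is absent from a list where no region with a peak in all 3 replicates was given to it. Such an absence does not show that no peak lay near the gene, or that the protein was not bound there.

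Of the 10 genes, 9 were named in at least 1 N-Myc list, where 38.2% of protein-coding genes were named. A promoter in the N-Myc list was found for 4 genes, MAX, MXD1, MXI1 and MNT, against 18.4% of protein-coding genes. An enhancer in the N-Myc list was found for 9 genes, against 33.3% of protein-coding genes with an enhancer or super-enhancer. The JMJD6 lists named 2 genes, MXI1 and MNT, against 1.32% of protein-coding genes. With 10 genes the exact Clopper-Pearson 95% intervals were wide, from 12.2% to 73.8% for N-Myc promoters, from 55.5% to 99.7% for enhancers and from 2.52% to 55.6% for JMJD6. These intervals, like all those given here, cover counting error only.

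**Figure D1:**
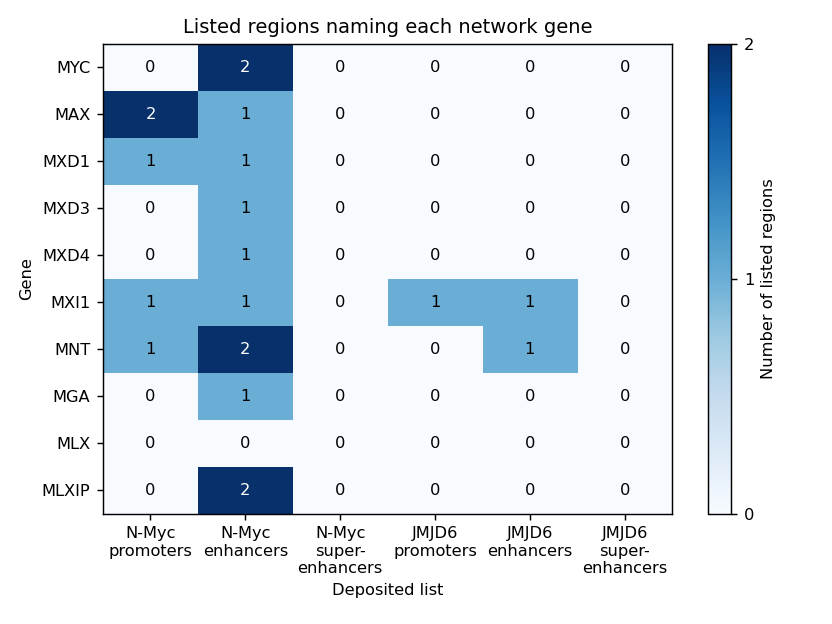
Number of listed regions that name each network gene (rows), by protein and region class (columns); the colour and the printed number give the count, from 0 to 2. The N-Myc enhancer column is filled for 9 genes, the N-Myc promoter column for 4, the JMJD6 columns for MXI1 and MNT, and neither super-enhancer column for any.

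The 4 genes with a listed promoter also each had a listed N-Myc enhancer, a combination held by 13.5% of protein-coding genes. In each of the 4, an enhancer row overlapped the gene's own listed promoter and touched the same peaks, so these listings are not separate binding. MNT also had a distal enhancer. Of the 12 N-Myc enhancer rows of the network, 6 overlapped a listed N-Myc promoter, as did 52.8% of all N-Myc enhancer rows. The other 5 listed genes, MYC, MXD3, MXD4, MGA and MLXIP, had enhancers only, as did 19.8% of protein-coding genes. No super-enhancer row of either protein named any of the 10 genes. Those lists held only 162 rows for N-Myc and 9 for JMJD6, each giving at most 2 genes. Few of the 19126 protein-coding genes could thus be named in them. MLX was in no list. Across the 6 lists of promoters, enhancers and super-enhancers, the pattern of MXI1 was shared by 37 protein-coding genes (0.193%) and that of MNT by 30 (0.157%).

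The rows of the 9 listed genes held 14 N-Myc peaks and 2 JMJD6 peaks, of which 1 is the same interval for both proteins. The N-Myc peaks were 299 to 1228 bp wide with a median of 466 bp. Canonical CACGTG, searched in the reference sequence and identical on both strands, stood in 7 of the 14 (exact Clopper-Pearson 95% interval 23.0% to 77.0%), against 33.4% of all N-Myc peaks. The non-canonical CACGCG, searched on both strands, stood in 6 (42.9%, interval 17.7% to 71.1%), against 15.9% of all N-Myc peaks. CACATG, also searched on both strands, stood in 5 (35.7%), against 42.1% of all. The background share lay within the interval of the members for CACGTG and below it for CACGCG, and peaks of 1 gene are not independent of each other.

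Of the 8 canonical E-boxes in these peaks, 7 are shown, because the network's own dimers bind this motif. The remaining site, in a peak of MYC, is not shown. Each is given on the plus strand with the E-box in capitals and 24 bases on either side, or 12 where the stretch touches an exon.
MAX, chr14:65569555-65569608: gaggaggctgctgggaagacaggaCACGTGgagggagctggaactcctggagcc
MXD1, chr2:70141393-70141446: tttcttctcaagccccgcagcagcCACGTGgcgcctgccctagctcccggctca
MNT, chr17:2239186-2239239: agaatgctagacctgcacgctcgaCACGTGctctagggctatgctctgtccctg
MGA, chr15:41914237-41914290: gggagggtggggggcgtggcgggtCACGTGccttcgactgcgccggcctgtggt
MLXIP, chr12:122461413-122461466: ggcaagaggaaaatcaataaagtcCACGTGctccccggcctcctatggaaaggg
MLXIP, chr12:122502156-122502185: ctcagggatgagCACGTGgcccatagcagc
MLXIP, chr12:122502271-122502300: catctttccttaCACGTGgggaggaatcag

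Among the 8 canonical E-boxes in the members' peaks, the extended palindrome CCACGTGG was found at the MXD1 site alone. Over all N-Myc peaks it made up 19.3% of the CACGTG sites. The bases next to the core therefore differed among these sites in peaks, with only MXD1 having C before and G after it.

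**Figure D2:**
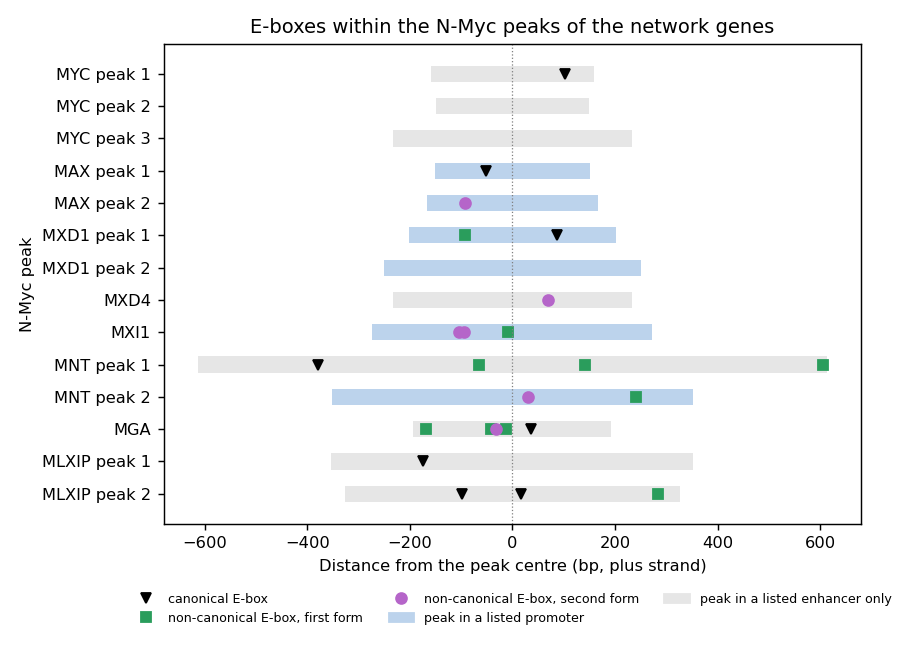
Each bar is 1 N-Myc peak of a network gene, drawn to scale around its centre (horizontal axis, distance in bp on the plus strand), and symbols mark CACGTG (triangles), CACGCG (squares, first form) and CACATG (circles, second form). Blue bars lie in a listed promoter of the gene itself and grey bars in its listed enhancers only; MNT peak 1 is the widest at 1228 bp, and MXD1 peak 2 and MYC peaks 2 and 3 hold none of the motifs.

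MAX encodes the common partner of MYC and MXD proteins. Its gene lies on the minus strand at chr14:65472892-65569413, and the promoter list gave it 2 overlapping rows for the start sites 65569413 and 65569262. N-Myc peaks lay upstream of the gene at chr14:65569483-65569784 (302 bp) and chr14:65570124-65570457 (334 bp), both intergenic. The nearer peak began 70 bp and ended 371 bp upstream of the outer start site, and its CACGTG, shown above, lay 169 bp upstream of it. The farther peak, at 711 to 1044 bp upstream, held CACATG and no canonical site. Both peaks were narrow: 16.0% and 25.9% of N-Myc peaks were no wider. The enhancer chr14:65567777-65570197 contained the nearer peak and 74 of the 334 bp of the farther. The list gave it to MAX and FNTB, a farnesyltransferase subunit gene.

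MYC encodes c-Myc, the paralog of N-Myc. No N-Myc peak overlapped its promoter, and the nearest began 56.2 kb downstream of an annotated start site, a distance within which 56.1% of protein-coding genes had a peak. The enhancer chr8:128806885-128808999, which the authors placed 59612 bp from the start site, held peaks of 318 bp and 299 bp in exons of PVT1, the long non-coding RNA gene next to MYC. The first of them, chr8:128807492-128807809, overlapped listed promoters of PVT1 and MIR1204, a microRNA gene, and held 1 CACGTG. The second, chr8:128808065-128808363, held none of the motifs. A farther enhancer, chr8:128956255-128958196, at 208895 bp, held a peak of 467 bp in an intron of PVT1, also with none. The list named TMEM75 beside MYC in both enhancers. The given distance and the listed PVT1 promoter stand beside the name of MYC, and which gene the peaks act on was not measured.

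The MXD genes encode dimerisation partners of MAX that recruit the SIN3 corepressor, and they differed in where N-Myc peaks lay. MXD1 had the only peak among the 10 genes that covered its listed start site. That peak, chr2:70141804-70142304, was 501 bp wide and ran from 368 bp upstream to 132 bp downstream of the start site at chr2:70142172, with none of the motifs. A second peak, chr2:70141132-70141534 (403 bp), lay 638 to 1040 bp upstream of that start site, in an intron of a longer annotated transcript, and held the CACGTG shown above and 1 CACGCG. The canonical E-box stood 753 bp upstream of the listed start site. The enhancer row chr2:70141020-70141884, at 865 bp the shortest of the 12 enhancer rows, touched both peaks.

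MXI1 encodes the MXD family member also called MXD2. It was the only gene of the 10 with a promoter in the JMJD6 list and the only one where the N-Myc and JMJD6 peaks were the same interval. That interval, chr10:111970817-111971362, was 546 bp wide. Of the N-Myc peaks 72.6% were no wider, and of the JMJD6 peaks 59.7%. It lay in an intron of MXI1, 829 to 1374 bp downstream of the listed start site at chr10:111969988, so that 172 bp (31.5% of the peak) fell inside the listed promoter. The enhancer chr10:111967775-111971366 (3592 bp), which the list gave to MXI1 and SMNDC1, a splicing factor gene, contained the peak and was listed for both proteins.

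The central 300 bases of the shared peak are shown because, among the 10 genes, only here did the proteins meet in 1 interval. The sequence of chr10:111970940-111971239 is given on the plus strand, which is the strand of the gene, with CACATG and CACGCG in capitals.
MXI1: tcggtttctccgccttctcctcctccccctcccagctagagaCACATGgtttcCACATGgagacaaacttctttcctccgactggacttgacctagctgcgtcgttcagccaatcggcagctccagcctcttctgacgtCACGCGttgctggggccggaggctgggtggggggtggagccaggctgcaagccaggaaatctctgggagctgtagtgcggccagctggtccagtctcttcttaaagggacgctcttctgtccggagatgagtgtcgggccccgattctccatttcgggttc
The CACGCG lay 8 bp from the centre of the peak, and the CACATG sites lay 105 and 94 bp from it. No CACGTG was found in the whole interval. Over all JMJD6 peaks 5.53% held a CACGTG.

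MXD4, at chr4:2249159-2263836 on the minus strand, was named for a single enhancer, chr4:2293287-2295800, at 30522 bp upstream by the authors' distance. Its N-Myc peak, chr4:2294465-2294929 (465 bp), lay in an intron of ZFYVE28, the other gene named in the row, and held CACATG. MXD3, at chr5:176728462-176739758 on the minus strand, was named for an enhancer that covered most of the gene, chr5:176729956-176740190 (10235 bp), together with PRELID1. That row held no common N-Myc peak, as did 144 of the 4649 N-Myc enhancer rows (3.1%). The nearest N-Myc peak was 77.6 kb upstream, in an untranslated region of SLC34A1. MXD3 was thus listed by name without a peak common to the replicates in its region.

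MNT encodes a MAX partner that is present in most cells and opposes MYC at shared sites. Its gene lies at chr17:2287367-2304398 on the minus strand. The peak chr17:2304662-2305366 (705 bp) lay 404 to 1108 bp upstream of the listed start site at 2304258, was intergenic and held 1 CACGCG and 1 CACATG. It lay in the listed promoter and in the enhancer chr17:2287410-2305397, which at 17988 bp was the longest enhancer row of the network and covered nearly the whole gene.

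The other enhancer of MNT, chr17:2238397-2252952 (14556 bp), was listed for both proteins and was given to SGSM2 and MNT at 58738 bp from the start site. In it, N-Myc and JMJD6 did not share an interval. The N-Myc peak, chr17:2238978-2240205, overlapped coding and untranslated exons of TSR1, and its E-box is shown above. Its 1228 bp made it the widest of the 14, and 98.9% of N-Myc peaks were no wider. It held 1 CACGTG and 3 CACGCG sites. The JMJD6 peak, chr17:2251190-2251585 (396 bp), lay in an intron of SGSM2, 10984 bp from the N-Myc peak, and held none of the motifs.

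MGA encodes a large MAX partner that belongs to the PRC1.6 repressor complex. Its gene lies at chr15:41913332-42065279 on the plus strand. No promoter row named it, but its N-Myc peak, chr15:41914035-41914420 (386 bp), began 303 bp downstream of an annotated MGA start site. The list placed the enhancer that contains it, chr15:41913086-41915074, at 38530 bp upstream, measured from another start site, and named TYRO3, a receptor tyrosine kinase gene, beside MGA. This peak held 1 CACGTG, 3 CACGCG and 1 CACATG, more of these sites than any other of the 14.

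MLXIP encodes MondoA, and MLX its partner. MLXIP, at chr12:122516628-122631894 on the plus strand, was named for a pair of enhancers, whose peaks both lay upstream of the gene. The enhancer chr12:122501833-122517632 (15800 bp) ran past the start of the gene, and the enhancer chr12:122460834-122462481 (1648 bp) lay wholly upstream. In the former, the peak chr12:122501943-122502594 (652 bp), in an exon of LINC02985, held 2 canonical E-boxes and 1 CACGCG and overlapped a listed promoter of LOC100506691. In the latter, the peak chr12:122461262-122461967 (706 bp), in an intron of BCL7A, held 1 canonical E-box. Between the nearer peak and the closest annotated MLXIP start lay 14.0 kb, and the list named BCL7A beside MLXIP in both rows. The nearer peak lay 28029 bp and the farther 68656 bp from an assembly gap of at least 50 kb. Whether the gap affected these peaks was not tested.

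MLX, at chr17:40719090-40725257 on the plus strand, was named in no row. The whole gene nevertheless lay inside an N-Myc super-enhancer, chr17:40687536-40730389 (42.9 kb), that the list gave to COASY and HSD17B1. The region held 2 N-Myc peaks, of 611 bp over NAGLU and of 373 bp over COASY, and no JMJD6 peak. Neither peak touched MLX, and neither held CACGTG. The nearer, chr17:40713887-40714259, lay 4.83 kb upstream of the first MLX start site and 26.3% of protein-coding genes had a peak as near.

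Measured from annotated start sites without the promoter list, 5 of the 10 genes (MAX, MXD1, MXI1, MNT and MGA) had an N-Myc peak within 1 kb, against 21.5% of protein-coding genes. All 10 had an N-Myc peak within 100 kb, against 67.5% of protein-coding genes. The median distance to the nearest N-Myc peak was 2.83 kb for the 10 genes and 40.5 kb for protein-coding genes. A gene with more annotated starts has more chances of a near peak, and the number of starts was not matched. The 10 genes had from 4 (MXD4) to 37 (MXI1) annotated starts. A JMJD6 peak lay within 100 kb of 2 genes, MXI1 at 0.828 kb and MNT at 40.0 kb, against 6.06% of protein-coding genes. For the other 8 genes the nearest JMJD6 peak was 0.718 Mb (MLX) to 15.8 Mb (MXD4) away.

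**Figure D3:**
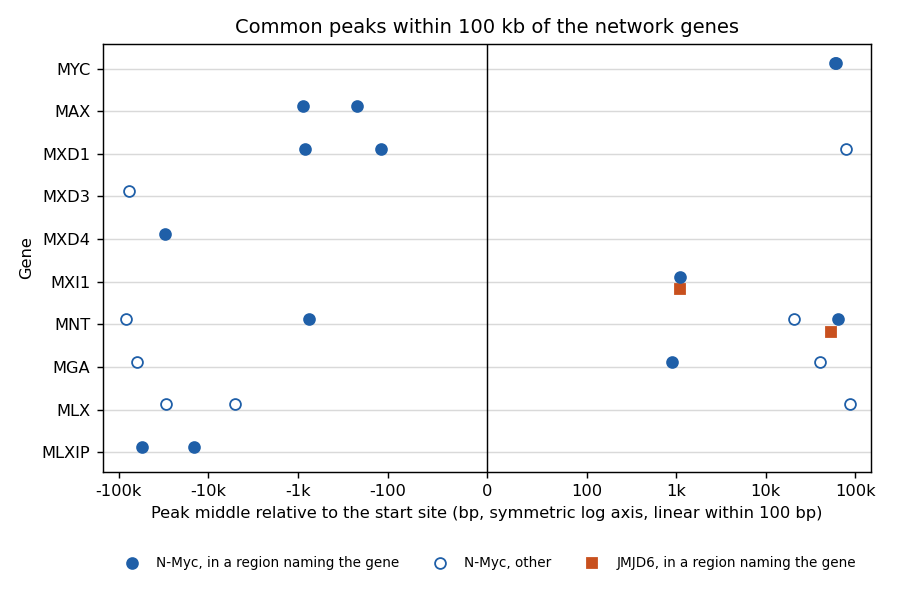
Positions of the common N-Myc and JMJD6 peaks within 100 kb of each network gene, by the distance in bp of the peak's middle from the listed or outermost annotated start site (symmetric log axis, linear within 100 bp), with positive values downstream; filled circles are N-Myc peaks in a region that names the gene, open circles other N-Myc peaks, and squares JMJD6 peaks. Filled circles lie within about 1 kb of the start of MAX, MXD1, MXI1, MNT and MGA, whereas those of MYC, MXD4 and MLXIP lie farther out, and the squares appear at MXI1 and MNT only.

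The median width of the 14 peaks was 466 bp, and the 6 in a listed promoter had a median of 452 bp, as had all N-Myc peaks in listed promoters. The 8 peaks in enhancers only had a median of 466 bp, against 405 bp for all N-Myc peaks outside listed promoters. Of these 8, 3 overlapped a promoter listed for another gene (both peaks of the nearer MYC enhancer and the nearer MLXIP peak), so they are not of the same kind as that background. The other 5 had a median width of 467 bp. The base composition of the 14 was close to that of the list, with a median GC content of 55.2% against 53.2%. CpG dinucleotides were more frequent, with a median of 4.97 per 100 bp against 2.71. Canonical E-boxes stood in 2 of the 6 promoter peaks (33.3%, against 36.9% of all N-Myc peaks in listed promoters) and in 5 of the 8 enhancer peaks (62.5%, exact 95% interval 24.5% to 91.5%, against 31.6% of those outside). The interval for the enhancer peaks held the background share. Among the 5 enhancer peaks in no listed promoter, 3 held CACGTG. The part of CpG frequency in the share of CACGTG and CACGCG, which both contain CpG, was not tested.

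**Figure D4:**
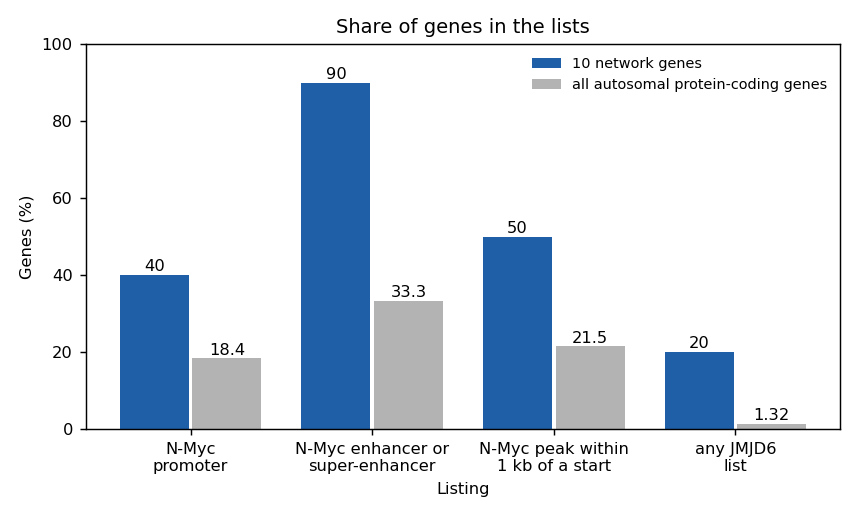
Shares in percent (bars from 0) of the 10 network genes beside the same share over all autosomal protein-coding genes for 4 kinds of listing, with the share printed on each bar. The network bars for N-Myc promoters (40.0%) and for enhancers (90.0%) stand above the background bars (18.4% and 33.3%), and each network bar rests on 10 genes.

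Canonical E-boxes near the start sites were then compared with the peaks. Counting up to 1 kb from any annotated start, 8 of the 10 genes held a CACGTG (51.9% of protein-coding genes did), with 18 sites in all and none at MYC or MXI1. The starts include internal ones, and their number per gene, from 4 to 37, was not matched to the background. An N-Myc peak covered 3 of the 18 (16.7%): those of MAX, MXD1 and MGA, at 169 bp upstream, 754 bp upstream and 531 bp downstream of the nearest annotated start. Over all protein-coding genes 8.95% of such sites lay in an N-Myc peak. The share of 16.7% rests on 3 sites, and whether it differs from 8.95% was not tested. MNT had 5 sites and none in a peak, and the site nearest to its start, 147 bp upstream, was 117 bp from the peak.

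Of the 15 canonical sites at start regions that no common peak covered, 5 are shown for comparison with those inside peaks. These are the most upstream site of each of the 5 genes that had sites and none in a peak. They are again given on the plus strand with the E-box in capitals.
MXD3, chr5:176739253-176739306: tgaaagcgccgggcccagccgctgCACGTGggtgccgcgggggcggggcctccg
MXD4, chr4:2264045-2264098: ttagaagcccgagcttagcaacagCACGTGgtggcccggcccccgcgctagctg
MNT, chr17:2304518-2304571: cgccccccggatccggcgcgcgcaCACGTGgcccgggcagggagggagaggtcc
MLX, chr17:40719056-40719085: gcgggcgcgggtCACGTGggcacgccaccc
MLXIP, chr12:122516265-122516318: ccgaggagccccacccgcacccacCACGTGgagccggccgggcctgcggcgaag
The MLX site lay 20 bp upstream of a start site and 4.81 kb from the nearest N-Myc peak. The MXD4 site lay 236 bp upstream and 30.4 kb from a peak, the MXD3 site 381 bp upstream and 78.1 kb from a peak, and the MLXIP site 337 bp upstream and 13.7 kb from a peak. The uncovered sites of MAX and MGA were close to their peaks, at 199 and 141 bp for MAX and at 354 and 97 bp for MGA. The same 6 letters therefore stood at start regions with and without a common N-Myc peak. The uncovered MLXIP site shown here also had C before and G after them, as had the MXD1 site inside a peak.

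In RefSeq promoters of 300 bases (GRCh38 table), which were given for 9 of the genes and not for MYC, CACGTG stood in 3 of 14 promoters, those of MXD4, MNT and MLX. Over all such promoters of protein-coding genes 8.25% held it.

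**Figure D5:**
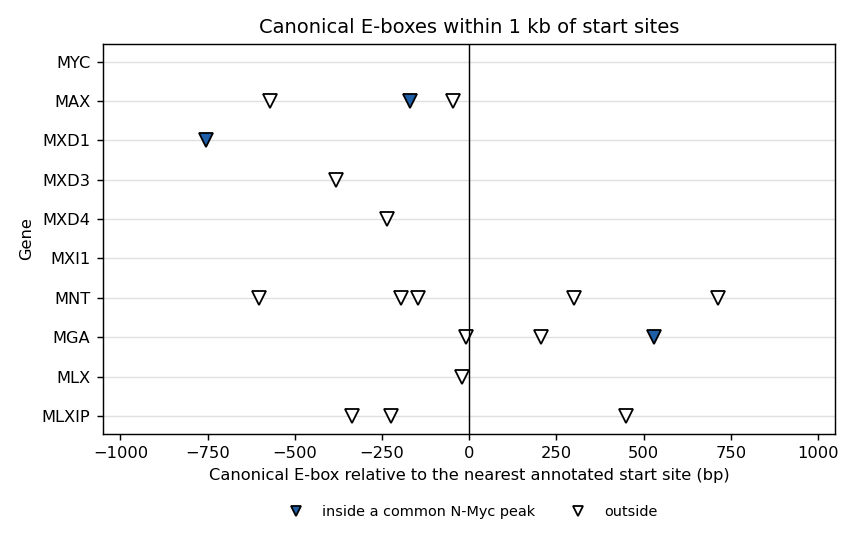
Each triangle is a CACGTG at most 1 kb from an annotated start of a network gene (horizontal axis, distance in bp from the nearest start, negative upstream); filled triangles lie in a common N-Myc peak. The filled triangles are 3 of 18, at MAX, MXD1 and MGA, and MYC and MXI1 have none.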

How the data were processed

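ChIP-seq was performed on CHP-134 cells with 3 samples for N-Myc and 3 for JMJD6. According to the study's methods the authors aligned reads with BWA, called peaks against input with MACS2 2.1.1.20160309, kept peaks found in all 3 replicates, and assigned them to RefSeq promoters and to ROSE enhancers and super-enhancers with their 2 nearest genes. The deposited values are interval positions in bp on hg19. They hold no counts, and the methods state only a minimum read number for all samples, so the depth of each sample cannot be given.

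From these lists, rows naming the 10 genes and the common peaks overlapping them by at least 1 bp were taken (Python 3.11.15, pysam 0.24.0, numpy 2.4.6). Motifs were searched in the GRCh37 sequence, and start sites came from GENCODE 44 lifted to GRCh37. The background was all autosomal protein-coding genes or all N-Myc peaks. Intervals are exact binomial (SciPy 1.17.1). The functions were checked on simulated data. All 10 genes were named whatever their values, with paralogs, and of the context genes those that the fixed rule picked. Members and context lists were chosen with earlier results of these data known. Groups came from the sample labels, and 20 alternatives were run.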

Additional observations from a re-analysis of the deposited data

How the results depend on the processing

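Of 20 alternatives over 5 results, 17 gave a count or median within 1.5 times the reported value. The exceptions concerned peaks with an E-box. Any CANNTG was held by 14 of 14 (93.4% of all N-Myc peaks). CACGTG within 100 bp of the centre was held by 4 (28.6%), close to the 23.5% of all N-Myc peaks. Of the 6 promoter peaks, 2 held CACGTG, against 36.9% of all N-Myc peaks in listed promoters. The 4 genes with an N-Myc promoter became 3 when only peaks at or above the median width counted (MAX lost), 3 when at least 50% of the peak had to lie inside the promoter (MXI1 lost), and 5 with any annotated start site (MGA gained). With a window of 5 kb, added after the data were seen, there were 6 (MGA and MLX gained). The 9 genes with an enhancer became 6 where enhancers over listed promoters were left out, and 8 where a common peak was required (MXD3 lost). Over all N-Myc enhancer rows 52.8% overlapped a listed N-Myc promoter and 3.1% held no common peak. The share of protein-coding genes under these limits is not given here. The JMJD6 count stayed at 2. No paired analysis was possible because the lists pool the replicates, and for the same reason no replicate could be left out. The lists gave no peak height or read count, so a gene without a peak cannot be told apart from a peak missed in 1 replicate.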

Other observations

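The other paralogs of the network were listed unevenly. MYCN itself had an N-Myc promoter peak, chr2:16079972-16080771 (800 bp), with none of the 3 E-box forms counted here, and it was named for 2 N-Myc enhancers and 3 N-Myc super-enhancers. Its enhancer chr2:15996200-15996385 was listed for both N-Myc and JMJD6, whose peaks there were the same interval, chr2:15996182-15996697. MYCN is amplified in CHP-134, and the part of copy number in these listings was not tested. MYCL and MLXIPL were in no list, although an N-Myc peak lay 2.44 kb downstream of a MYCL start site and another 4.74 kb upstream of MLXIPL.

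Partners and relatives of the network proteins were counted from lists chosen by function. Of 9 genes of the SIN3 corepressor complex, 6 were named in an N-Myc list and 1 had a promoter there, and SIN3B, HDAC1 and RBBP4 had no row. Of 13 genes of the PRC1.6 complex to which MGA belongs, 7 were named and 2 had a promoter, and TFDP1, TFDP2, RNF2, YAF2, RYBP and HDAC1 had no row. Of 9 other E-box binding basic helix-loop-helix zipper genes, 6 were named and 3 had a promoter, and USF1, USF2 and TFE3 had no row. Over protein-coding genes 38.2% were named in an N-Myc list and 18.4% had a promoter in it. None of these genes was in a JMJD6 list, where only 1.32% of protein-coding genes were named. TXNIP and ARRDC4, the known glucose-responsive targets of MondoA, were both listed with an N-Myc promoter and an enhancer. That combination was held by 13.5% of protein-coding genes.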
